A study of Mus musculus with 30 samples.

Results

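The 8 genes described here encode transaminases, the enzymes that move an amino group from an amino acid to an oxo acid. *Gpt* and *Gpt2* act on alanine, *Got1* and *Got2* on aspartate, *Agxt* and *Agxt2* on glyoxylate, *Abat* on 4-aminobutyrate (GABA) and *Aadat* on 2-aminoadipate and kynurenine. They were taken by gene symbol, and all 8 were found among the 14173 genes of the count tables. RNA was measured in the livers of 30 male C57BL6/J mice, 6 on each of 5 diets, each mouse giving 1 library. By weight, the Cas-20% diet held 20% casein, 0.57% methionine and 0.41% cysteine, and the Cas-5% diet 5% casein, 0.15% methionine and 0.1% cysteine. The Soy-20% diet held 20% soy protein, 0.22% methionine and 0.22% cysteine, and the Soy-20% + SAA diet was the same diet with sulfur amino acids (SAA) added to reach 0.58% methionine and 0.41% cysteine. The Soy-10% diet held 11.5% soy protein, 0.13% methionine and 0.13% cysteine. All mice were 6 months old, had eaten their diet for 12 weeks from 12 weeks of age and were fasted for 4 h, and no gene was altered in any group. Total protein fell together with methionine and cysteine in Cas-5%, and also in Soy-10% against either Soy-20% + SAA or Soy-20%, so these comparisons cannot tell the nutrients apart. The pair Soy-20% and Soy-20% + SAA differed in the added sulfur amino acids and in the switch of diet. That switch also set Cas-5% apart from Cas-20% and Soy-10% apart from Soy-20%.

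Transaminases carry pyridoxal phosphate, the active form of vitamin B6, and run in both directions. In the liver they collect amino groups from incoming amino acids into glutamate and aspartate, from which the urea cycle takes its nitrogen, and they release carbon skeletons such as pyruvate and oxaloacetate for glucose synthesis. Alanine and aspartate each have a cytosolic enzyme (*Gpt*, *Got1*) and a mitochondrial enzyme (*Gpt2*, *Got2*), and the aspartate pair is part of the malate-aspartate shuttle. *Agxt* turns glyoxylate into glycine and so keeps it from becoming oxalate, while *Agxt2*, a mitochondrial enzyme, also acts on beta-aminoisobutyrate and dimethylarginines.

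The 250 bases before the transcription start are shown for 4 members, because these are the members with a match to a searched motif (*Got1*, *Agxt2*, *Aadat*) and, beside them, *Agxt*, whose transcript fell about as far as that of *Got1* under casein restriction and whose window held no match. The sequences are RefSeq promoters on GRCm38.p6, read 5′ to 3′ on the gene's strand. That table held a promoter for 6 of the 8 members, the others being *Gpt* and *Abat*. Capitals mark the motif matches.
*Got1*, chr19:43524606-43524855, minus strand: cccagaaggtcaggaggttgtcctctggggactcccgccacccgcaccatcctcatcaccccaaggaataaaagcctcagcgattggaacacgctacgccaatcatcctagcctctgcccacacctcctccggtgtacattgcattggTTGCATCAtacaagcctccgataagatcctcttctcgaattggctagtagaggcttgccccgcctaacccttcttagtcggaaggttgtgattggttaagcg
*Agxt*, chr1:93134990-93135239, plus strand: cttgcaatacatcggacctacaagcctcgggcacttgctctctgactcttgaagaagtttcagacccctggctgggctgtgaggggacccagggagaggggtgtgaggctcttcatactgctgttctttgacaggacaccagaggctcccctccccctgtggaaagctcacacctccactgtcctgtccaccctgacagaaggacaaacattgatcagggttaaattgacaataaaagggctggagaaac
*Agxt2*, chr15:10358283-10358532, plus strand: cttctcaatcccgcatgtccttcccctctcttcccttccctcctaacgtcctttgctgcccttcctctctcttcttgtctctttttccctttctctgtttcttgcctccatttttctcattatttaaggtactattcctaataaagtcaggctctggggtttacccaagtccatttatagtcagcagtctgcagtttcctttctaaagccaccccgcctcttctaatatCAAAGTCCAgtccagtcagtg
*Aadat*, chr8:60505874-60506123, plus strand: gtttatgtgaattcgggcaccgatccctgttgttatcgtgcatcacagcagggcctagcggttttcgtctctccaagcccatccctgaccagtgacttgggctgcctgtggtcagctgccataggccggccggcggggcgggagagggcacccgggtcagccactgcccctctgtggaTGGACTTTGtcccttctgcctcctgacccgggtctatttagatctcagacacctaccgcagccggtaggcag
On both strands 7 motifs were searched. The C/EBP-ATF response element TGATGNAA, which ATF4 uses during amino acid shortage, occurred in *Got1* on the strand opposite to the one printed, from -102 to -95 relative to the start. It was present in 3.45% of the 32851 promoter windows of the table. The HNF4 motif CAAAGTCCA occurred in *Agxt2* from -21 to -13 relative to its first listed start and, on the opposite strand, in *Aadat* from -72 to -64, and 0.384% of all windows held it. The cyclic AMP response element TGACGTCA (1.55% of windows), the forkhead motif TGTTTAC (3.17%), the glucocorticoid response element (0.387%), the HNF1 motif (0.00913%) and the C/EBP motif TTGCNNAA (9.56%) were in none of the 6 members' windows. A match describes these letters only, and factor binding was not measured.

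The libraries held 7694015 to 14565542 counted reads (median 10803734), and each member had at least 229 reads in every library. *Got2* overlaps *Gm45760* on the opposite strand (chr8:95870814-95872595) and *Agxt2* overlaps *Gm21973* on its own strand (chr15:10358532-10373749), neither of which was in the table. Neither stretch reaches the member's annotated 3′ end (95864134 in *Got2* and 10410153 in *Agxt2*). Reads within the stretches may not be told apart. Levels are given as normalised read counts, that is, counts divided by 1 size factor per library. Of 5 hepatocyte markers 4 were in the table, and they summed to 665800 to 898700 normalised reads per liver. Pancreatic acinar markers (5 of 6 listed) summed to at most 5.75 in 29 livers and to 5931 in Soy-10% liver 4. In Soy-20% + SAA livers 3 to 6 the read count rose with the GC content of a transcript's 3′ end. The slope was 0.057 to 0.198 log2 units per 10 percentage points of GC in those 4 libraries, and -0.058 to 0.024 in the other 26. The members' 3′ ends held 51.0 to 52.5% GC in *Gpt*, *Gpt2*, *Got2* and *Agxt*, 44.0% in *Agxt2*, 38.5% in *Abat*, 32.5% in *Got1* and 26.5% in *Aadat*, beside a median of 40.5% over all genes with a known 3′ end. Results with the Soy-20% + SAA diet are therefore also given with that GC slope as a covariate or with livers 1 and 2 as the only livers of that diet.

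Casein restriction lowered all 8 transaminase transcripts, and in every case the highest Cas-5% liver lay below the lowest Cas-20% liver. The falls ran from 4.07-fold for *Got1* and 4.00-fold for *Agxt* to 1.33-fold for *Aadat*. With edgeR's quasi-likelihood test and a Benjamini-Hochberg adjusted p of 0.05 or less, 8 of 8 members were lower in Cas-5% than in Cas-20%, where 13.3% of the 12076 genes tested were lower and 24.9% were called in either direction. The median log2 fold change of the members was -1.10, against 0.02 over all genes tested. Complete separation of the 2 groups downward, seen in 8 of 8 members, was seen in 7.73% of all genes.

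*Got1* encodes cytosolic aspartate transaminase and lies at chr19:43499752-43524605. Its normalised read count was 2166 to 4998 in the Cas-20% livers, with a median of 3291, and 646 to 930.0 in the Cas-5% livers, with a median of 840. The Cas-20% livers differed widely among themselves (coefficient of variation 30.0%) and the Cas-5% livers much less (12.3%), yet the groups stayed apart. *Got1* fell by 2.02 on the log2 scale (SE 0.16, edgeR adjusted p = 2e-07). Its mitochondrial counterpart *Got2* (chr8:95864134-95888547), the member with the highest read count, fell by 0.48 (SE 0.08, edgeR adjusted p = 0.00027). The *Got2* counts were 3962 to 5302 (median 4444) in Cas-20% and 2822 to 3490.0 (median 3237) in Cas-5%.

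*Gpt* encodes cytosolic alanine transaminase (chr15:76695716-76699686), which makes pyruvate from the alanine that muscle releases. It ranged from 1433 to 1960.2 (median 1787) in Cas-20% and from 663 to 816 (median 708) in Cas-5%, a fall of 1.24 on the log2 scale (SE 0.09, edgeR adjusted p = 3.7e-08). *Gpt2*, the mitochondrial enzyme (chr8:85492576-85527560), ranged from 2241 to 2464 (median 2388) in Cas-20%, its narrowest spread in any diet. In Cas-5% it ranged from 1339 to 1682 (median 1505) and was lower by 0.63 on the log2 scale (SE 0.07, edgeR adjusted p = 4.7e-06). In both the alanine and the aspartate pair the cytosolic transcript thus fell further than the mitochondrial transcript, a difference tested with the ratios given further on.

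*Agxt* (chr1:93135240-93145421) was measured at 1018 to 1504 (median 1286) in Cas-20% and at 293 to 340 (median 313) in Cas-5%. The Cas-5% livers were nearly alike, with a coefficient of variation of 5.55%, and *Agxt* fell by 2.0 on the log2 scale (SE 0.09, edgeR adjusted p = 2.6e-10), the smallest p among the members. *Agxt2* (chr15:10358532-10410153) ranged from 1339 to 1603 (median 1475) in Cas-20% and from 631 to 802 (median 782) in Cas-5%. It fell by 0.97 on the log2 scale (SE 0.07, edgeR adjusted p = 1.1e-07).

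*Abat* encodes GABA transaminase, a mitochondrial enzyme that also takes beta-alanine, and lies at chr16:8513429-8621568. Its counts of 1489 to 2159 (median 1656) in Cas-20% stood against 404 to 595 (median 530) in Cas-5%, and it fell by 1.70 on the log2 scale (SE 0.10, edgeR adjusted p = 1e-08). *Aadat* (chr8:60505932-60545677), which acts in lysine breakdown and makes kynurenic acid, had the lowest read count over the 30 livers (mean 572) and the smallest fall. It ranged from 555 to 774 (median 627) in Cas-20% and from 389 to 540 (median 500) in Cas-5%, which is 0.42 lower in log2 units (SE 0.09, edgeR adjusted p = 0.0031). With the study's further threshold of an absolute log2 fold change of 1, *Got1*, *Agxt*, *Abat* and *Gpt* remained, 4 of 8 beside 3.48% of all genes that passed both.

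Markers of zonation and of other cells moved with the casein diets. The summed level of 6 periportal hepatocyte markers was 33470 to 51930 in Cas-20% and 19970 to 28840 in Cas-5%. Of these markers, *Ass1*, *Gls2*, *Sds* and *Hal* are themselves amino acid enzymes. The pericentral markers summed to 42670 to 47960 in Cas-5% (median 46090) and 46160 to 68320 in Cas-20% (median 54540). Among them is *Oat*, itself an aminotransferase, with means of 1530 in Cas-5% and 8498 in Cas-20%. *Glul*, also among them, had means of 9760 and 10840 and was not called (edgeR adjusted p = 0.3). The summed level of 4 skeletal muscle markers was 0 to 3.068 in Cas-20% and 23.8 to 59.3 in Cas-5%. That of 6 stellate and matrix genes was 3273 to 4127 in Cas-20% and 3799 to 5168 in Cas-5%. Their part in the falls was not tested, and in bulk liver fewer cells of a type and less RNA per cell cannot be told apart.

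**Figure D1:**
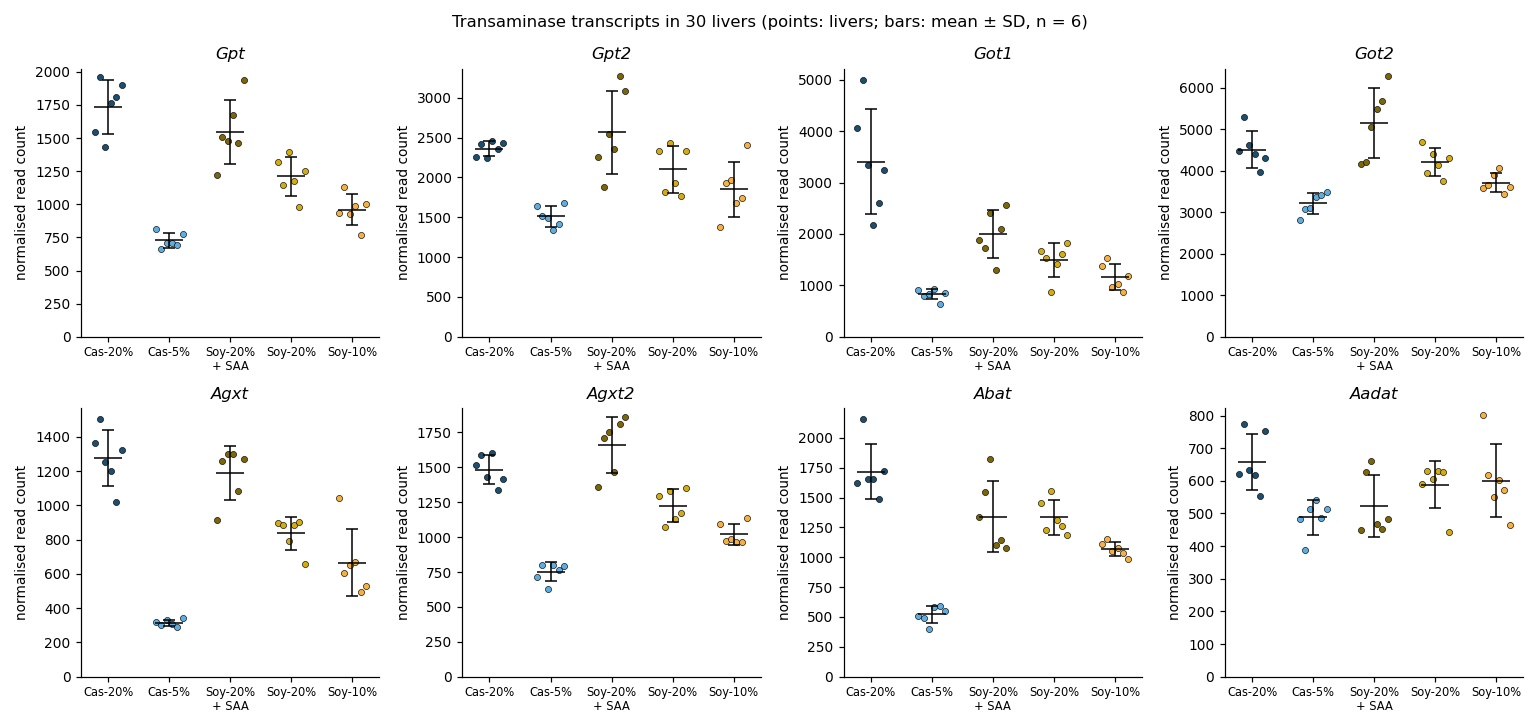
Normalised read count (vertical axis, from 0) of the 8 transaminases on each of the 5 diets (horizontal axis), with 1 point per liver and bars for the mean ± SD of 6 livers. The Cas-5% livers have the lowest mean in every panel and lie clear of the Cas-20% livers, from *Got1*, with means of 828 and 3401, to *Aadat*, with means of 488 and 659.

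Soy restriction was compared with Soy-20% + SAA, the soy control whose sulfur amino acids equal those of the casein control. By edgeR with all livers of both diets, 6 of the 8 transcripts were called lower. *Got1*, *Got2* and *Gpt2* lost their calls with the GC slope as a covariate. They also lost them with livers 1 and 2 as the only Soy-20% + SAA livers, where *Agxt* did too. *Abat* was called lower in both of these alternatives. With all livers, none of the 8 was called with a log2 size of at least 1, beside 2.57% of all genes. *Agxt* fell by 0.84 on the log2 scale, *Got1* by 0.78, *Agxt2* by 0.70, *Gpt* by 0.69, *Got2* by 0.48 and *Gpt2* by 0.47. The edgeR adjusted p-values were 0.00033 for *Agxt2*, 0.0013 for *Gpt*, 0.0038 for *Agxt*, 0.0068 for *Got2*, 0.0075 for *Got1* and 0.034 for *Gpt2*. Over all 11983 genes tested 8.47% were lower and 17% were called in either direction, and the median log2 fold change was -0.01, against -0.58 for the members.

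*Agxt2* gave the clearest separation of these soy groups. It ranged from 1357 to 1858 (median 1733) in Soy-20% + SAA and from 963 to 1139 (median 981) in Soy-10%. *Gpt* ranged from 1220.3 to 1941 (median 1492) in Soy-20% + SAA and from 769 to 1128 (median 959) in Soy-10%. *Agxt2*, *Gpt* and *Got2* were the 3 members whose groups did not overlap, as in 3.31% of all genes. In *Agxt*, 5 of the 6 Soy-10% livers (497 to 668) lay below all Soy-20% + SAA livers (916 to 1301), and Soy-10% liver 1, at 1043, did not. In *Got1* the Soy-10% livers (872 to 1539, median 1110) overlapped the Soy-20% + SAA livers (1297 to 2554, median 1991), with 4 of 6 below them all.

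The periportal markers summed to 23680 to 34160 in Soy-20% + SAA and to 23720 to 29280 in Soy-10%. The cholangiocyte markers summed to 346.0 to 519.0 (median 426) and to 265.6 to 352.4 (median 317.6), and the part of either list was not tested.

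*Abat* and *Aadat* did not pass the test. *Abat* was measured at 1078 to 1824 (median 1238) in Soy-20% + SAA and at 984 to 1156 (median 1064) in Soy-10%, with a log2 fold change of -0.33 (95% CI -0.57 to -0.08, edgeR adjusted p = 0.067). *Aadat* had a log2 fold change of 0.20 (95% CI -0.08 to 0.48, edgeR adjusted p = 0.31), and its Soy-10% livers (465 to 801) overlapped the Soy-20% + SAA livers (448 to 662). Values of *Got2* also differed between the libraries of unequal GC slope. It was 4177 and 4219 in Soy-20% + SAA livers 1 and 2 and 5063 to 6293 in livers 3 to 6. With the GC slope as a covariate 4 members were called (*Gpt*, *Agxt*, *Agxt2* and *Abat*) beside 3.25% of all genes, and with livers 1 and 2 as the only Soy-20% + SAA livers 3 were called (*Gpt*, *Agxt2* and *Abat*) beside 2.54%. *Abat* was lower by 0.55 and 0.44 there (edgeR adjusted p = 0.015 and 0.014), and *Agxt* had -0.72 in the second (0.1). The fit of all 30 livers called 7 members, *Abat* included, beside 24.5% of all genes. In those fits *Got2* was lower by 0.19 and 0.18 in log2 units (edgeR adjusted p = 0.12 and 0.28), *Gpt2* by 0.21 and 0.17 (0.51 and 0.64), and *Got1* by 0.73 and 0.64 (0.063 and 0.064). *Gpt2* had an edgeR adjusted p of 0.053 to 0.079 when any of 8 of the 12 livers was left out, among them Soy-10% liver 4 with the acinar markers (0.063), and *Abat* passed without Soy-20% + SAA liver 6 (0.049).

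Against the unsupplemented soy control, Soy-20%, the Soy-10% diet changed 1 transaminase, *Abat*. *Abat* ranged from 1187 to 1553 (median 1287) in Soy-20% and from 984 to 1156 (median 1064) in Soy-10%, so that the groups did not overlap, and it fell by 0.32 on the log2 scale (SE 0.07, edgeR adjusted p = 0.041). Genes called lower made up 0.546% of the 11897 tested, and 0.866% were called in either direction, 0.227% with a log2 size of at least 1, which 0 members had. Downward separation of the groups was seen in 0.748% of all genes. The call was lost without any of 9 livers (edgeR adjusted p = 0.054 to 0.11), with the GC slope as a covariate (0.062), in the fit that paired livers by number (0.061) and in the fit of all 30 livers (0.26). The log2 fold change was -0.32 in these 3 fits and -0.35 to -0.27 without 1 liver. The other members' log2 fold changes were -0.36 to -0.18, apart from *Aadat* at 0.03. *Agxt2* (-0.27, edgeR adjusted p = 0.099) and *Gpt* (-0.34, edgeR adjusted p = 0.1) came nearest to a call. DESeq2 called both, and the share of all genes that it called in this comparison is not given here. *Agxt* was called without Soy-10% liver 1 (-0.50, edgeR adjusted p = 0.024) and *Gpt* without Soy-20% liver 5 (-0.39, 0.038). This comparison shares its Soy-10% livers with the previous comparison.

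Adding sulfur amino acids to the 20% soy diet raised methionine and cysteine at an equal share of protein. The diets also differed in the switch of diet, which cannot be told apart from the addition. Their libraries differed in GC slope (Soy-20% + SAA livers 3 to 6). With edgeR 0 of 8 members were called between Soy-20% and Soy-20% + SAA, as was 1 gene of 11932 (0.00838%), while 6 members had an unadjusted p under 0.05, all lower in Soy-20%, beside 9.71% of all genes lower at that level. *Agxt* was 655 to 903 (median 886) in Soy-20% and 916 to 1301 (median 1266) in Soy-20% + SAA, so that no liver overlapped. Its log2 fold change was -0.50 (95% CI -0.72 to -0.28, edgeR adjusted p = 0.055). *Agxt2*, at 1075 to 1355 (median 1234) and 1357 to 1858 (median 1733), did not overlap either and had a log2 fold change of -0.43 (95% CI -0.62 to -0.23, edgeR adjusted p = 0.055). Such separation downward was seen in 0.855% of all genes. DESeq2 called *Gpt*, *Agxt* and *Agxt2*, beside 7.46% of all genes, and the fit of all 30 livers called these and *Got2*, beside 14.3%. edgeR called 4 members without Soy-20% + SAA liver 1 (the same as in the fit of 30 livers) and 3 without liver 2 (*Agxt*, *Agxt2* and *Got2*). Livers 1 and 2 had GC slopes of -0.028 and -0.026, so leaving out either gave more weight to livers 3 to 6, whose slopes were higher. The share of all genes called without either liver is not given here. *Abat* (0.00, 95% CI -0.27 to 0.28) and *Aadat* (0.18, 95% CI -0.08 to 0.43) were not called in any of these fits. With the GC slope as a covariate, and with livers 1 and 2 as the only Soy-20% + SAA livers, 0 of 8 members and 0 genes were called by edgeR (1046 and 844 genes had an unadjusted p under 0.05). The log2 fold changes under the covariate were -0.42 for *Agxt* (edgeR adjusted p = 0.38), -0.36 for *Agxt2* (0.39), -0.36 for *Got1* (0.66), -0.16 for *Gpt* (0.73) and -0.02 for both *Gpt2* and *Got2* (0.99 and 0.97). With livers 1 and 2 only they were -0.38 for *Agxt*, -0.32 for *Agxt2*, -0.28 for *Got1* and -0.17 for *Gpt* (edgeR adjusted p = 0.67, 0.67, 0.83 and 0.83).

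The control diets were matched in methionine and cysteine but differed in protein source and in the switch of diet. At an unadjusted p under 0.05 they differed in 3143 genes and in 3 members. With the adjusted p 0 of 8 members were called, beside 2.43% of 11988 genes called in either direction. *Got1* was the nearest. Its Cas-20% livers (2166 to 4998) reached far above the Soy-20% + SAA livers (1297 to 2554), and 5 of 6 lay above them all, with a log2 fold change of 0.77 (95% CI 0.36 to 1.19, edgeR adjusted p = 0.051). DESeq2 (adjusted p = 0.0062), edgeR with genes of at least 10 counts in every liver (0.049) and edgeR without Soy-20% + SAA liver 1 (0.031) or liver 2 (0.043) called it, while the GC covariate (0.87, adjusted p = 0.22) and livers 1 and 2 as the only Soy-20% + SAA livers (0.91, 0.57) did not. *Abat* (0.36, edgeR adjusted p = 0.11) and *Aadat* (0.34, edgeR adjusted p = 0.1) were also measured higher in Cas-20%, and both were called in the fit of all 30 livers (0.022 and 0.045). Over all genes DESeq2 called 10.4% between these control diets and the fit of all 30 livers 18.6%. *Gpt2* (-0.12), *Got2* (-0.19) and *Agxt2* (-0.16) had negative values, and those of *Gpt2* and *Got2* turned positive (0.12 and 0.07) with the GC slope as a covariate.

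The restricted diets, close in methionine (0.15% and 0.13%), differed in both the amount (5% and 11.5%) and the source of protein (casein and soy), which cannot be told apart. Between them 5 members differed, all lower in Cas-5% than in Soy-10%. Genes called lower made up 6.14% of the 12041 tested, and 10.7% were called in either direction. *Agxt* was lower by 1.06 on the log2 scale (2.08-fold) and *Abat* by 1.01 (2.02-fold), with edgeR adjusted p-values of 9e-05 and 4.9e-07, and these were the called members with a log2 size of at least 1, as were 0.872% of all genes. *Got1* was lower by 0.47, *Agxt2* by 0.42 and *Gpt* by 0.38 (edgeR adjusted p = 0.019, 0.00071 and 0.0052). In *Agxt*, *Agxt2* and *Abat* every Cas-5% liver lay below every Soy-10% liver, as in 4.09% of all genes. *Aadat*, *Gpt2* and *Got2* had log2 fold changes of -0.28, -0.27 and -0.19 and were not called (edgeR adjusted p = 0.099, 0.097 and 0.069). *Got1* was not called in the fit of all 30 livers (adjusted p = 0.11), where DESeq2 on the 12 livers added *Got2* (0.026). Without Soy-10% liver 1 *Gpt2* was called too (0.024), and without liver 6 *Aadat* (0.035).

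**Figure D2:**
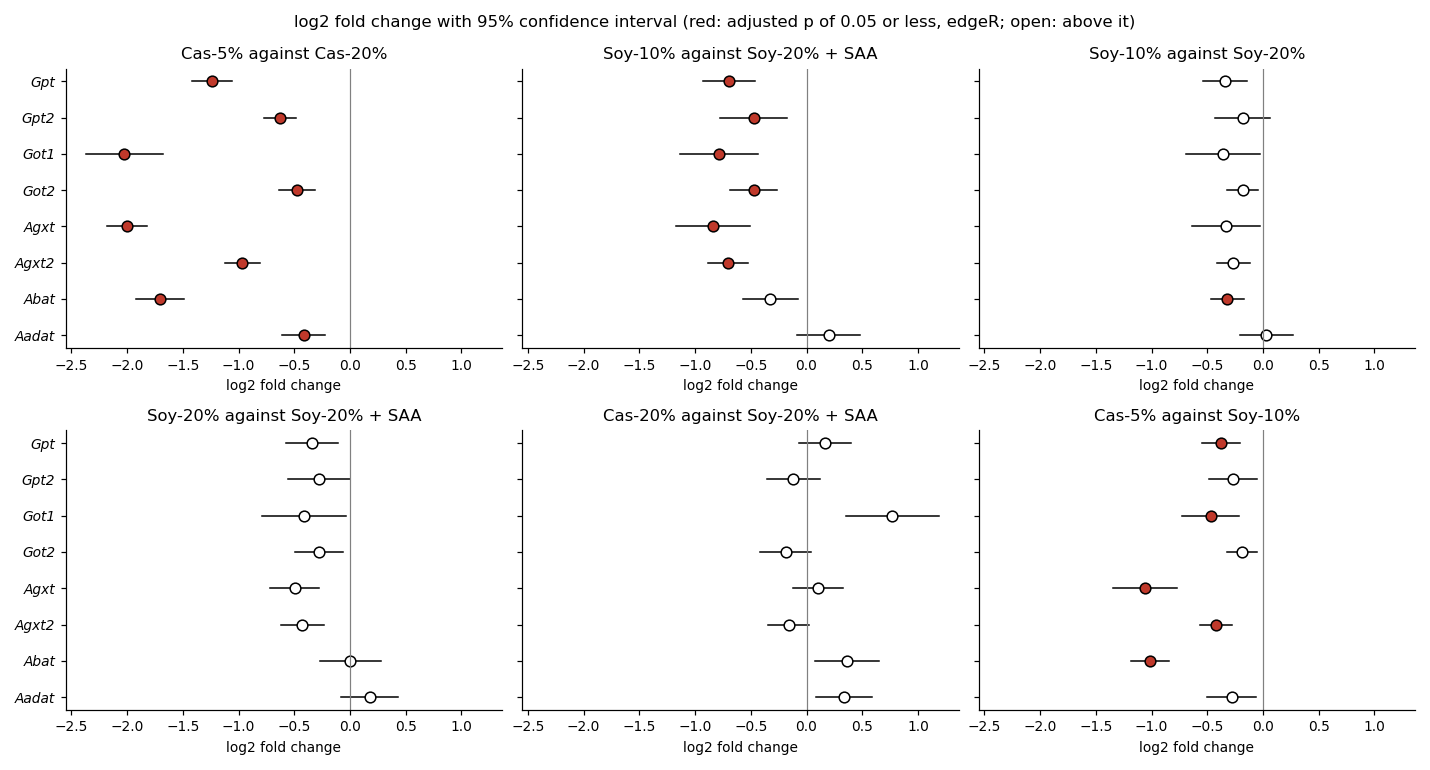
The log2 fold change of each transaminase (points, horizontal axis) with its 95% confidence interval in the 6 comparisons of 2 diets, 12 livers each, where red points had an edgeR adjusted p of 0.05 or less. All 8 points are red and left of 0 for Cas-5% against Cas-20%, and 6 are for Soy-10% against Soy-20% + SAA. Such points number 1 for Soy-10% against Soy-20% and 5 for Cas-5% against Soy-10%, with none in the other panels. With the GC slope as a covariate, *Got1*, *Got2* and *Gpt2* were not called for Soy-10% against Soy-20% + SAA.

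Whether casein and soy restriction differed in size was tested as the difference of the 2 effects in one fit of 24 livers. The difference was called and negative for 5 members, of which *Aadat* had a soy log2 fold change of 0.20 (not called). Protein was cut from 20% to 5% with casein and from 20% to 11.5% with soy, so source and depth of restriction cannot be told apart. The difference was -1.38 for *Abat*, -1.25 for *Got1*, -1.17 for *Agxt*, -0.62 for *Aadat* and -0.55 for *Gpt* (edgeR adjusted p = 2.3e-05, 0.0039, 0.00054, 0.024 and 0.017). Among the 12532 genes tested, 5.49% had a negative difference that was called and 8.69% a difference of either sign. *Abat*, *Got1* and *Agxt* were called with a size of at least 1, as were 2.27% of all genes. The median difference was -0.59 over the members and 0.01 over all genes. Casein restriction lowered *Abat* 3.26-fold. Its soy value was -0.33 on the log2 scale and not called (edgeR adjusted p = 0.067), and it was called at -0.55 with the GC slope as a covariate (0.015), at -0.44 with livers 1 and 2 as the only Soy-20% + SAA livers (0.014) and at -0.32 in the fit of all 30 livers (0.032). *Got2* had a difference of -0.01 (95% CI -0.26 to 0.25), *Gpt2* of -0.16 (95% CI -0.49 to 0.17) and *Agxt2* of -0.27 (95% CI -0.50 to -0.04), none of them called. With the GC slope as a covariate *Got2* had a difference of -0.26 (95% CI -0.44 to -0.07) and *Gpt2* of -0.36 (95% CI -0.69 to -0.03), still not called (edgeR adjusted p = 0.099 and 0.21).

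*Abat*, *Got1*, *Agxt* and *Gpt* were called with the GC slope as a covariate, with livers 1 and 2 as the only Soy-20% + SAA livers, taking Soy-20% for the control and without any 1 of the 24 livers. The first 3 of these alternatives called 4.49%, 2.27% and 5.99% of all genes. *Aadat* was lost in the same 3 (-0.55, -0.58 and -0.45, edgeR adjusted p = 0.087, 0.13 and 0.077). Against the Soy-20% control *Agxt2* was added, at -0.71 (edgeR adjusted p = 6.7e-05).

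**Figure D3:**
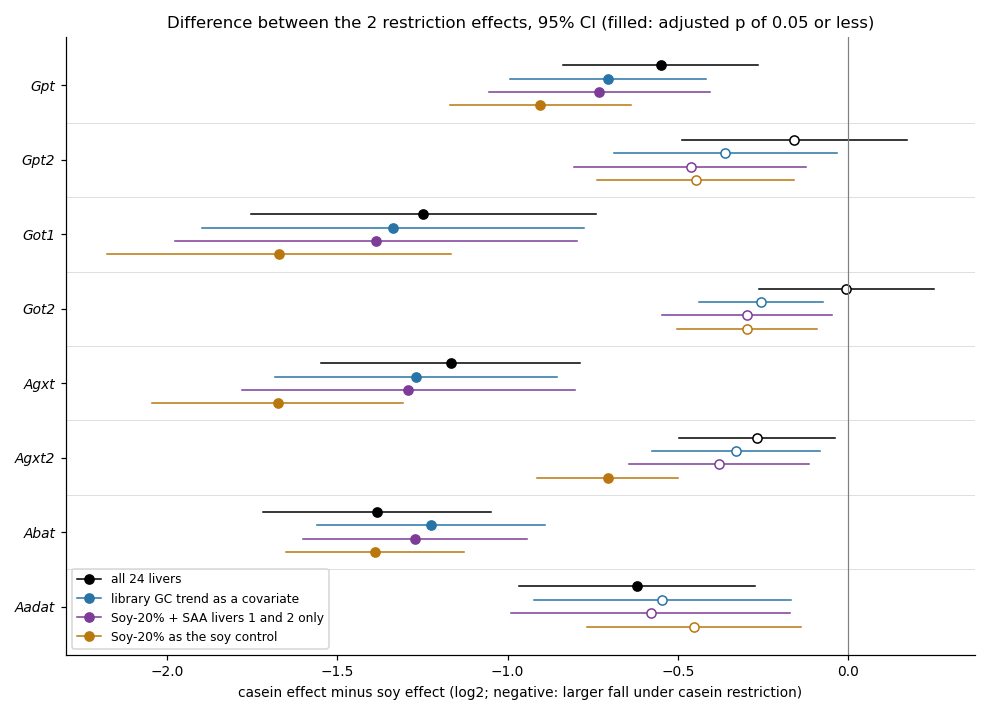
Casein effect minus soy effect on the log2 scale (points, horizontal axis) with its 95% confidence interval for each transaminase, in the fit of all 24 livers and in 3 alternatives given by colour, where filled points had an edgeR adjusted p of 0.05 or less. *Abat*, *Got1*, *Agxt* and *Gpt* are filled and negative in all 4 fits, while *Got2* sits at -0.01 with all livers and between -0.30 and -0.26 in the alternatives.

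Over the 5 diets together, all 8 members differed in the fit of 30 livers (edgeR adjusted p = 3.5e-12 for *Agxt* to 0.025 for *Aadat*), where 43.4% of 12561 genes did. In *Gpt*, *Got1*, *Agxt*, *Agxt2* and *Abat* the largest log2 difference between diets was 1 or more, and 7.56% of all genes were called with such a difference. Cas-5% had the lowest mean of every member. Cas-20% had the highest mean of *Gpt*, *Got1*, *Agxt*, *Abat* and *Aadat*, and Soy-20% + SAA that of *Gpt2*, *Got2* and *Agxt2*. Taken as a sum, the 8 transcripts had a total CPM (counts scaled to equal library totals) of 1514 ± 111 in Cas-20%, 1446 ± 146 in Soy-20% + SAA, 1195 ± 84.0 in Soy-20%, 1044 ± 62.2 in Soy-10% and 847 ± 48.8 in Cas-5% (SD, n = 6).

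For 7 members the order below the 2 highest diets was Soy-20%, Soy-10%, Cas-5%. *Agxt* had means of 1276 in Cas-20%, 1189 in Soy-20% + SAA, 836 in Soy-20%, 665 in Soy-10% and 315 in Cas-5%. Of its neighbours in that order, Soy-20% + SAA and Soy-20% differed (edgeR adjusted p = 0.0081) and Soy-10% and Cas-5% differed (2.9e-06), while the first pair and the middle pair did not (0.62 and 0.32). *Abat* had means of 1718, 1338, 1333, 1069 and 522 in the same order, with a step between the first 2 diets (edgeR adjusted p = 0.022) and another between the last 2 (5.2e-07). In *Got1* the only step between neighbours was the one from Cas-20% (mean 3401) to Soy-20% + SAA (1996; edgeR adjusted p = 0.0043). *Gpt* had steps from Soy-20% + SAA (1547) to Soy-20% (1213) and from Soy-10% (957) to Cas-5% (728), with edgeR adjusted p-values of 0.018 and 0.015. *Agxt2* had steps from Cas-20% (1483) to Soy-20% (1226) and from Soy-10% (1021) to Cas-5% (752; edgeR adjusted p = 0.048 and 0.00067). The steps next to Soy-20% + SAA were not called by edgeR in the comparisons of 2 diets given above, where the covariate left *Gpt* at -0.16 and *Agxt* at -0.42 between the 20% soy diets (edgeR adjusted p = 0.73 and 0.38). No neighbours differed in *Gpt2*, *Got2* or *Aadat*, whose highest means were 1.69, 1.60 and 1.35 times their lowest. In *Aadat* the order was Cas-20% (659), Soy-10% (601), Soy-20% (588), Soy-20% + SAA (523) and Cas-5% (488). The shares of all genes called in that fit were 18.6% between Cas-20% and Soy-20% + SAA, 14.3% between the soy controls, 0.494% between Soy-20% and Soy-10%, 7.17% between Soy-10% and Cas-5%, 3.41% between Cas-20% and Soy-20%, 15.4% between Cas-20% and Soy-10% and 35.0% between Soy-20% + SAA and Cas-5%.

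The cytosolic and mitochondrial isoenzymes were compared as a ratio of reads within each liver, where the size factor drops out. The ratio of *Got1* to *Got2* was 0.491 to 0.943 in the Cas-20% livers and 0.188 to 0.323 in the Cas-5% livers, without overlap. The log2 ratio was -0.46 ± 0.34 in Cas-20% and -1.96 ± 0.26 in Cas-5% (SD, n = 6), a difference of -1.51 (exact two-sided permutation test, p = 0.0022, adjusted p = 0.0087 over 12 tests). The value 0.0022 is the smallest that 6 against 6 livers can give. Between the control diets the ratio differed as well. It was 0.237 to 0.477 in Soy-20% + SAA, below every Cas-20% liver, with a log2 difference of 0.93 for Cas-20% (exact permutation test, adjusted p = 0.0087). With livers 1 and 2 as the only Soy-20% + SAA livers this difference was 0.76, and both livers lay below every Cas-20% liver. An exact two-sided test of 6 against 2 livers cannot go below p = 0.071, which this one gave. Between Soy-10% and Soy-20% + SAA it was -0.32 (exact permutation test, adjusted p = 0.33).

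The ratio of *Gpt* to *Gpt2* was 0.639 to 0.811 in Cas-20% and 0.438 to 0.529 in Cas-5%, again without overlap. The log2 ratio was -0.45 ± 0.13 and -1.06 ± 0.09 (SD, n = 6), a difference of -0.61 (exact permutation test, adjusted p = 0.0087). In the soy diets the mean ratio was 0.618 with added SAA, 0.579 in Soy-20% and 0.529 in Soy-10%, and the log2 difference between Soy-10% and Soy-20% + SAA was -0.22 (exact permutation test, adjusted p = 0.33). Leaving out any 1 liver moved the casein differences to between -1.62 and -1.42 for the aspartate pair and between -0.64 and -0.57 for the alanine pair. These ratios are read counts at 3′ ends and not protein amounts, and the 3′ ends of *Got1* and *Got2* differ in GC content.

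**Figure D4:**
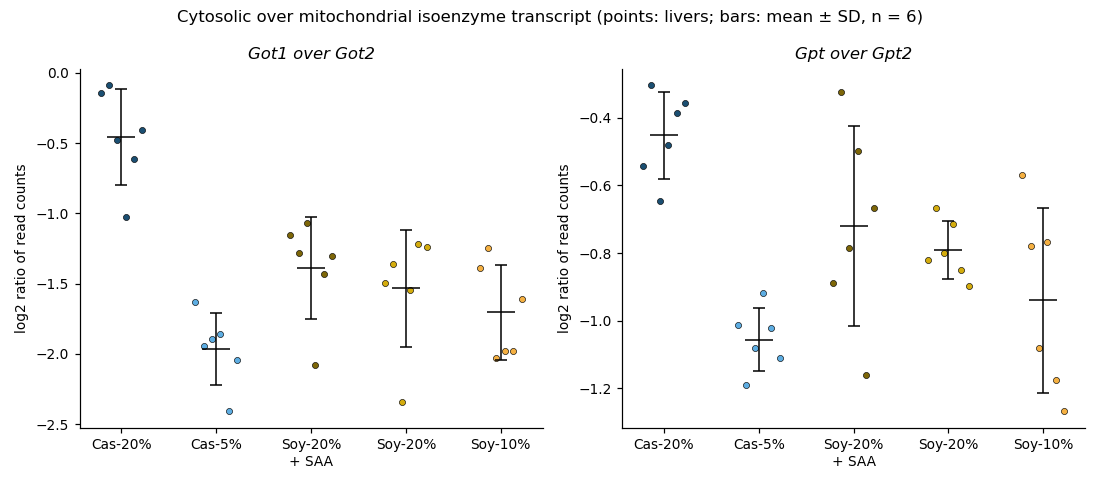
The log2 ratio of the cytosolic to the mitochondrial transcript (vertical axis) in each liver (points) with mean ± SD of 6 livers for aspartate (left) and alanine transaminase (right) on each of the 5 diets. For *Got1* over *Got2* the Cas-20% livers, with a mean of -0.46, lie above the Cas-5% livers, with a mean of -1.96, and the soy diets have means of -1.70 to -1.39.

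Genes of 9 neighbouring pathway lists were read in the same fits. Leaving the members out, 69 listed genes were tested, of which 37 fell and 7 rose under casein restriction, with a median log2 fold change of -0.29. Under soy restriction against Soy-20% + SAA 20 fell and 4 rose (median -0.13), and with the GC slope as a covariate 7 fell and 4 rose (median -0.07). Over all genes tested, 13.3% were called lower and 24.9% in either direction under casein restriction. Under soy restriction these shares were 8.47% and 17%, and 3.25% were called in either direction with the GC slope as a covariate. The counts of each list below are to be read beside these shares. Among 9 other aminotransferases 3 fell and 3 rose in Cas-5%. *Oat*, which makes glutamate from ornithine, had means of 8498 in Cas-20% and 1530 in Cas-5% and fell by 2.46 on the log2 scale (edgeR adjusted p = 7e-09), a larger value than that of any of the 8 members. *Psat1*, the transaminase of serine synthesis, went the other way, from a mean of 4.58 in Cas-20% to 151 in Cas-5% (log2 fold change 5.02, edgeR adjusted p = 1.3e-11). Both moved in the same directions in Soy-10% against Soy-20% + SAA, *Oat* by -1.12 (edgeR adjusted p = 0.0019) and *Psat1* by 3.60 (0.0002).

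Of 17 genes of alanine, aspartate and glutamate metabolism 9 fell and 1 rose under casein restriction, and 7 fell and 1 rose under soy restriction. *Gls2*, the liver glutaminase, fell by 1.86 on the log2 scale in Cas-5% (edgeR adjusted p = 1.3e-08), and *Ass1*, which brings aspartate nitrogen into the urea cycle, fell by 2.39 (3.8e-08) and in Soy-10% by 0.88 (0.00033). *Asns*, which makes asparagine from aspartate, was the gene that rose, by 3.76 in Cas-5% (edgeR adjusted p = 1.3e-08) and by 2.80 in Soy-10% (0.0013). With the GC slope as a covariate 3 genes of this list were called under soy restriction, and 2 with livers 1 and 2 as the only Soy-20% + SAA livers.

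The malate-aspartate shuttle, in which *Got1* and *Got2* work, had 4 of 5 other genes lower in Cas-5%. The cytosolic malate dehydrogenase *Mdh1* fell by 0.68 in log2 units (edgeR adjusted p = 3.1e-06), and the aspartate-glutamate carrier *Slc25a13* by 0.24 (0.017). With the GC slope as a covariate, or livers paired by number, 2 of the 5 were called, and under soy restriction 0 of 5 (DESeq2 and the fit of 30 livers each called 1). In glyoxylate and hydroxyproline metabolism, the pathway that feeds *Agxt*, 4 of 7 genes fell under casein and 2 under soy restriction. *Aldh4a1* and *Prodh2*, which work in proline and hydroxyproline breakdown, fell in Cas-5% by 0.86 and 0.70 in log2 units (edgeR adjusted p = 3e-07 and 1.1e-06) and in Soy-10% by 0.52 and 0.39 (0.0025 and 0.02). *Prodh2* was not called in Soy-10% with the GC covariate (-0.14, edgeR adjusted p = 0.45) or with livers 1 and 2 only (-0.07, 0.76), and *Aldh4a1* not with the latter (-0.33, 0.1).

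Around *Abat*, 4 of 7 genes of GABA, beta-alanine and pyrimidine breakdown fell and 1 rose in Cas-5%, and 2 fell in Soy-10%. The betaine and GABA transporter *Slc6a12* fell by 0.84 on the log2 scale in Cas-5% (edgeR adjusted p = 1.2e-05) and by 0.48 in Soy-10% (0.0011), and *Dpyd*, the first enzyme of pyrimidine breakdown, fell by 0.67 in Cas-5% (1.3e-05). *Upb1*, which makes beta-alanine, fell by 0.26 in Soy-10% (0.034), a call lost without any of 9 of the 12 livers (-0.31 to -0.23), with the GC covariate (-0.07, edgeR adjusted p = 0.62) and with livers 1 and 2 as the only Soy-20% + SAA livers (-0.06, 0.76). Around *Aadat*, 8 of 9 genes of lysine and kynurenine metabolism fell in Cas-5%, while 3 fell and 1 rose in Soy-10%. *Aass*, the entry enzyme of lysine breakdown, fell by 1.23 on the log2 scale in Cas-5% (edgeR adjusted p = 6e-08) and had a log2 fold change of -0.01 in Soy-10% (0.97), which was -0.35 with the GC covariate (0.042) and -0.31 with livers 1 and 2 only (0.049), called in both. *Aldh7a1*, which follows in that pathway and supplies the substrate of *Aadat*, fell by 0.79 and 0.42 (2.3e-07 and 0.0021), and *Haao*, of the kynurenine branch, fell by 0.93 and 0.42 (5.3e-07 and 0.0048). In Soy-10% *Haao* was not called with the GC covariate (-0.25, edgeR adjusted p = 0.094) or with livers 1 and 2 only (-0.24, 0.22), and *Aldh7a1* not with the latter (-0.25, 0.11).

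The difference of the casein and soy effects was called negative for all 9 genes of that list, 7 with the GC slope as a covariate and 5 against the Soy-20% control. Over all genes 5.49% had a negative difference that was called. In the 2 alternatives 4.49% and 5.99% had a called difference of either sign. Dimethylarginines are substrates of *Agxt2*, and of 3 genes in that list *Ddah2*, which degrades them, rose by 0.41 in Cas-5% (edgeR adjusted p = 0.046), a call that 6 of 7 alternatives did not make, DESeq2 and the GC covariate among them. *Prmt1*, which makes dimethylarginine in proteins, fell by 0.46 in Soy-10% (0.023). This call was lost without any of 5 of the 12 livers (-0.51 to -0.39 over all 12 omissions), with the GC covariate (-0.23, edgeR adjusted p = 0.38) and with livers 1 and 2 as the only Soy-20% + SAA livers (-0.21, 0.47). Pyridoxal phosphate is the cofactor of all 8 members. *Pdxk*, pyridoxal kinase, which takes part in its supply, fell by 0.50 on the log2 scale in Cas-5% and by 0.51 in Soy-10% (edgeR adjusted p = 0.002 and 0.0084), the soy call being lost with the GC slope as a covariate and with livers 1 and 2 as the only Soy-20% + SAA livers.

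Of 10 regulators of amino acid and hepatocyte genes 3 fell and 1 rose in Cas-5%, where 24.9% of all genes were called in either direction. In Soy-10% 1 regulator fell and 1 rose, beside 17% of all genes called. The transcription factors *Cebpa* and *Klf15* fell by 0.56 and 0.39 on the log2 scale in Cas-5% (edgeR adjusted p = 1.5e-05 and 0.00048). In Soy-10% *Cebpb* rose by 0.92 (edgeR adjusted p = 0.0026) and *Ppara* fell by 0.52 (0.0073). *Ppara* was not called with the GC covariate (-0.35, edgeR adjusted p = 0.13), and with livers 1 and 2 as the only Soy-20% + SAA livers neither was (*Ppara* -0.37, 0.19, and *Cebpb* 0.57, 0.12). The transcript of *Atf4*, named here because its motif was searched, had log2 fold changes of 0.20 and 0.17 and was not called (edgeR adjusted p = 0.29 and 0.15), and that of *Hnf4a*, named for the same reason, rose by 0.27 in Cas-5% (0.005). These last 2 genes were chosen after their values were seen.

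**Figure D5:**
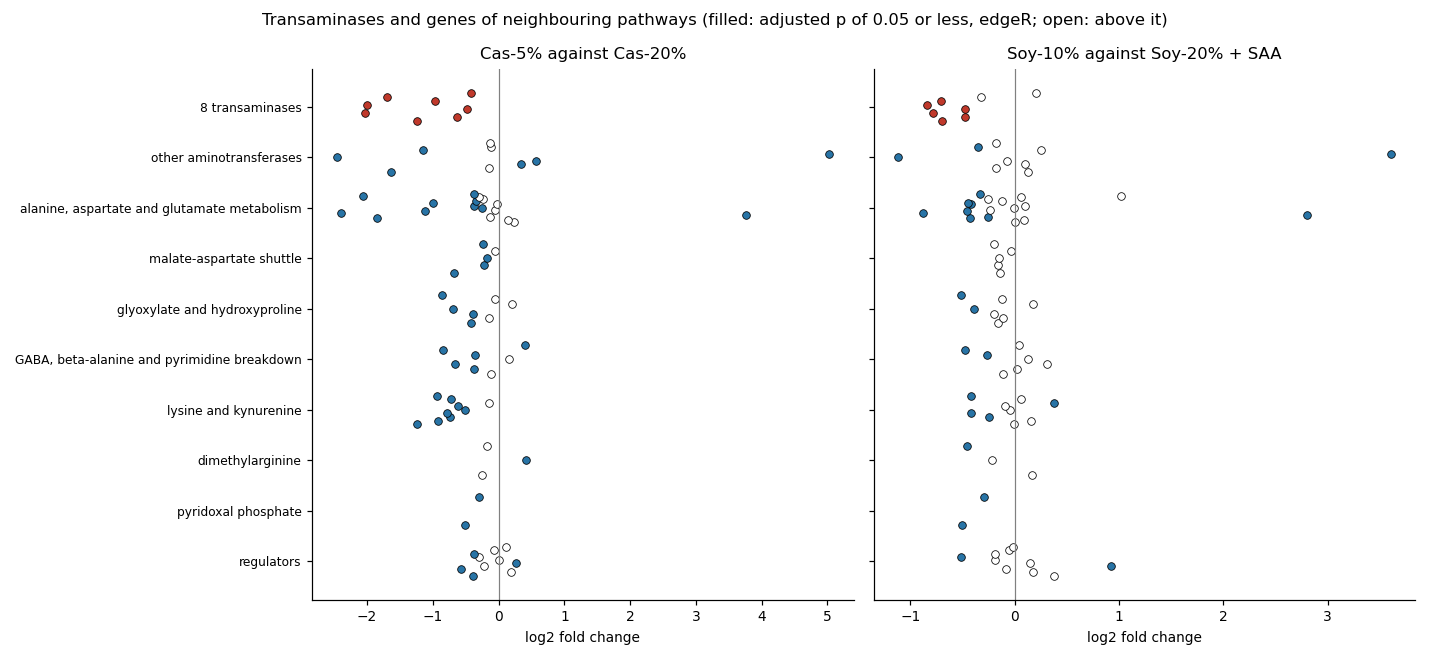
The log2 fold change (horizontal axis) of the 8 transaminases (red) and of genes of 9 neighbouring lists (blue) in Cas-5% against Cas-20% (left) and Soy-10% against Soy-20% + SAA (right), each point a gene and filled where the edgeR adjusted p was 0.05 or less. The transaminases lie between -2.02 and -0.42 on the left and between -0.84 and 0.20 on the right, and the far right points are *Psat1* at 5.02 and 3.60 and *Asns* at 3.76 and 2.80.

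The genes whose levels ran most like each member's were sought over the 30 livers, by Pearson's r of log2(normalised count + 1) among 11992 genes, as a description in which the diets' means and shared libraries both count. *Agxt2* ran closest to *Dmgdh* (r = 0.974) and *Bhmt* (0.955), enzymes of betaine and choline breakdown, and to *Dct* (0.954). *Agxt* ran closest to *Gnmt* (0.959), glycine N-methyltransferase, to *Ivd* (0.956), isovaleryl-CoA dehydrogenase, and to *Aldh7a1* (0.952). *Abat* was near *Ivd* (0.948), *Mpv17l* (0.941) and *Agmat* (0.928). *Gpt* was near *Dcxr* (0.961), *Hsd17b10* (0.947) and *Aldh4a1* (0.946), and *Got1* near *Aldh1l1* (0.916), *Slc38a3* (0.902), a glutamine transporter of the liver, and *Aldh1b1* (0.898). *Got2* was near *Prdx6* (0.973), *Mpdu1* (0.964) and *Blmh* (0.957), and *Gpt2* near *Echs1* (0.898), *Aqp4* (0.896) and *Them7* (0.896). *Aadat* had the weakest neighbours, *Aass* (0.712), *Snf8* (0.709) and *Ulk2* (0.703).

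Within diets, after each diet's mean was taken off, the members did not move as 1 group. Over the 30 livers the deviations of *Agxt* and *Aadat* had r = 0.738 and those of *Abat* and *Aadat* 0.598, while *Gpt2* ran against *Aadat* (-0.527) and *Agxt* (-0.391). *Gpt*, *Gpt2*, *Got2* and *Agxt2* were positively related to each other (0.354 to 0.502). These values share libraries and are given as a description. The 3′ ends of *Gpt*, *Gpt2* and *Got2* are high in GC, and so is that of *Agxt* (51.0%), while *Agxt2* has 44.0%. *Agxt* had r = 0.2 with *Gpt* and 0.252 with *Got2*.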

How the data were processed

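Liver RNA of 30 mice was read by 3′ end sequencing (QuantSeq), 1 library per mouse. The authors counted reads per gene and deposited a table of raw counts on mouse genome GRCm38 (mm10), and a second deposited table whose signal values equal those counts divided by 1 size factor per library (0.7586 to 1.297), for which the submitters' processing notes name R 4.0.3 and DESeq2 1.30. The aligner, counting program and strand setting are not given in the sources used here. Rows of both tables were joined to the labels by column title, and 14173 genes were held, each with a total of 90 or more over the 30 livers.

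Counts were tested with edgeR 4.0.16 in R 4.3.3 (filterByExpr, TMM, quasi-likelihood F-test, adjusted p of 0.05 or less by Benjamini-Hochberg over all genes tested). Each pair of diets was fitted on its 12 livers, the difference of the casein and soy effects on 24 and the test over all diets, with the 10 pairs of diets, on 30. The study's DESeq2 (1.42.0 here), its log2 threshold of 1, other filters and size factors, a GC slope per library, a replicate block, single livers left out and the Soy-20% + SAA livers 1 and 2 alone were alternatives. edgeR was checked on simulated counts. Ratios of isoenzymes and alternatives for the pathway lists were chosen after seeing the data. The members and lists were chosen with earlier results of these data known. All 8 members were named, from each list the 2 genes with the smallest adjusted p in each restriction among those called, and for each member the 3 genes of highest r. One item named by this rule is not reported here. Labels do not say that equal replicate numbers mark a shared litter or day, and equal numbers were not taken as pairs.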

Additional observations from a re-analysis of the deposited data

Results flagged for a closer look

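In groups of 6 livers, 3 of 40 sets of member values held a liver far from the others by Dixon's criterion, which chance gives in about 1 of 20. *Agxt* reached 1043 in Soy-10% liver 1 against 497 to 668 in the others, and *Abat* reached 2159 in Cas-20% liver 2 against 1489 to 1726. *Aadat* was 444 in Soy-20% liver 6 against 589 to 631.

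For 5 members, beside 8.69% of all genes, the casein and soy effects differed by the test of the difference itself (edgeR, 24 livers). Casein restriction exceeded soy restriction in size, with a difference of -0.55 for *Gpt*, -1.25 for *Got1*, -1.17 for *Agxt*, -1.38 for *Abat* and -0.62 for *Aadat* on the log2 scale. The soy value of *Aadat* was 0.20 and not called, and its difference was lost in the alternatives given above. *Got1* was lower by 0.47 in Cas-5% than in Soy-10%, and had a value of 0.77 for Cas-20% against Soy-20% + SAA. Both enter its difference.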

How the results depend on the processing

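The 8 calls in Cas-5% against Cas-20% were made under every alternative with the same threshold and without any 1 liver (8 to 8). A log2 threshold of 1 in addition left 4 there, 0 in Soy-10% against Soy-20% + SAA, 0 in Soy-10% against Soy-20%, 2 in Cas-5% against Soy-10%, 3 in the difference of effects and 5 over all diets. With livers 1 and 2 as the only Soy-20% + SAA livers 3 members were called in Soy-10% against Soy-20% + SAA (5 to 6 without 1 liver). In Soy-10% against Soy-20% DESeq2 called 3, and the GC covariate, the fit of 30 livers and the replicate block called 0 (0 to 2 without 1 liver). DESeq2's share over all genes is not given here for that comparison, so its 3 calls have no background beside them. In Soy-20% against Soy-20% + SAA DESeq2 called 3 and the fit of 30 livers 4 (0 to 4 without 1 liver). In Cas-20% against Soy-20% + SAA DESeq2 and the filter of 10 counts in every liver called 1 and the fit of 30 livers 3 (0 to 1 without 1 liver). The cause of these changes was not tested. Without 1 liver 5 to 6 were called in Cas-5% against Soy-10%, 5 to 5 in the difference of effects and 7 to 8 over all diets.

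Pairing livers by replicate number as a block changed no other call of a member. Same-numbered livers had correlations of -0.19 to 0.19 in their deviations, and at most 2 of 6 correlated best with their own number, so the numbers were not read as pairs. Some values near 0 turned sign. For *Abat* in Soy-20% against Soy-20% + SAA, 0.004 became -0.003 with DESeq2's size factors and with DESeq2, -0.002 in the fit of 30 livers, -0.23 with the GC covariate and -0.12 with livers 1 and 2 only, and ran from -0.059 to 0.103 without 1 liver. With livers 1 and 2 only, *Gpt2* and *Got2* became 0.018 and 0.001 in Soy-20% against Soy-20% + SAA and 0.18 and 0.10 in Cas-20% against Soy-20% + SAA, where the GC covariate gave 0.12 and 0.068. *Got2* in the difference of effects was 0.001 with the stricter filter and -0.070 to 0.047 without 1 liver. *Aadat* in Soy-10% against Soy-20% ran from -0.066 to 0.094, and in Soy-20% against Soy-20% + SAA the log2 *Got1*/*Got2* ratio ran from -0.284 to 0.016 and the log2 *Gpt*/*Gpt2* ratio from -0.159 to 0.009 without 1 liver. Of 488 values of members under the other alternatives 442 kept direction and call, and of 1008 without 1 liver 958 did. The 6 livers a diet limit all comparisons, and the GC slopes of the Soy-20% + SAA libraries those with that diet.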
